A study of Mus musculus with 2 samples.

Results

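The cathepsins are the proteases of the lysosome and of related compartments, and the stefins and cystatins are the proteins that bind and block the cysteine proteases among them. The members were chosen by gene name: all gene probes of the array whose name starts with Stfa, with Cst but not Cstf, or with Cts followed by a letter or digit. This rule took 49 of 41174 probes, for 39 of 21337 named genes: 22 proteases, 16 inhibitors, and Cstad, which shares the start of its name with the cystatins but is not counted as either. The rule itself used no measured value, but the family was selected on the log2 ratios of these same arrays, seen in earlier results, so its calls describe the arrays and are not independent evidence. Mouse keratinocytes, the main cell type of the epidermis, were compared by their total RNA on 2 Agilent arrays that each read both dyes, and these arrays form a single group of replicates numbered 1 and 2. On each array wild-type RNA was labelled with Cy3. Cy5 marked RNA of keratinocytes labelled CHUK-LoxP mutant. They are read here as cells in which Chuk, the gene of the kinase IKKα, was deleted by way of loxP sites. The strain, age, culture and Cre driver are not given in the sources used here. No dye swap is named, so for a single probe the dye and the genotype cannot be told apart.

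Cysteine cathepsins such as cathepsins B, L and S cut proteins in the acid lumen of the lysosome, where they are joined by the aspartic protease cathepsin D and the serine carboxypeptidase cathepsin A. Stefins A and B act mainly inside the cell, and the cystatins are secreted. In the epidermis stefin A is a component of the cornified envelope, and cystatin M/E (Cst6) restrains cathepsin L and legumain during cornification and hair formation. Where humans carry a single stefin A gene, the mouse carries a cluster of close copies.

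On array 1 the median intensity of a spot was 109.9 for Cy3 against 218 for Cy5, and on array 2 it was 95.2 against 171.5. Of the spots, 53.2% to 64.5% were well above background in a channel. Both arrays lay on 1 slide and were read in 1 scan, and nothing says that the RNAs came from separate cultures. The spread behind the p-values is thus only that between these arrays, pooled in large part over all tested probes. That difference may be technical. All 12 keratinocyte markers of the list used were well above background in both channels. The Chuk probes went against a reading of Cy5 as Chuk-deleted. Probe A_51_P223475 gave log2 ratios of Cy5 over Cy3 of 0.73 and 0.75, and probe A_52_P386468 gave 0.93 and 0.78. Cy5 was thus the brighter on both arrays. With each array lowered by the mean of its spike-in controls, the same probes stood at −0.02 and 0.10. Where on Chuk these probes lie is not known here, so they may lie outside the deleted stretch. Whether Chuk was lost in these cells, and whether the channels match their labels, was not tested. Cy5 is called below the channel labelled Chuk-deleted, for its label of CHUK-LoxP mutant.

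Inhibitors held the extremes of the family at both ends, and the proteases lay between them. Of 39 genes, 21 had a probe that either channel showed well above background on each array. They were tested with limma, with Benjamini-Hochberg adjustment over 23519 probes and a threshold of 0.05. A probe that is bright in a single channel passes this filter because of that channel, so the counts cover the genes that passed and not all members. Of 8 tested inhibitor genes, 5 were called higher, 2 fell and 1 was not called. The 5 include Stfa2l1, which passed the filter through Cy5 only, and with both channels required 4 were called higher. Of 12 tested protease genes, 4 rose, 6 fell and 2 were not called. Over all 13739 genes tested, 33.0% were called higher and 28.3% lower, so 61.3% were called at all, and a call alone sets no member apart. A change of at least 2-fold on both arrays was less common, at 1.50% of genes higher and 3.21% lower. In this way 4 inhibitors were higher and 1 was lower, while 0 proteases were either; these are counts of size with no test. With median centring 1 protease was higher and 0 inhibitors were lower in this way. With the spike-in scaling 3 inhibitors were higher, and 6 proteases and 2 inhibitors were lower. On array 2 alone, 4 proteases (Ctsd, Ctsh, Ctsl and Ctss) were at least 2-fold lower. The median log2 ratio over the tested inhibitors was 0.93 on array 1 and 0.96 on array 2, with genes from −2.49 to 2.73. It was 0.17 with the spike-in scaling, 0.12 with no filter on dim probes, 1.46 with the scanner software's ratio, 1.54 with median centring and 1.67 with both channels required. The median over the tested proteases was −0.24 and −0.21, with genes from −1.04 to 0.77, and the median over all genes tested was 0.02. The protease median turned to 0.33 with median centring alone, where that over all genes was 0.55, and was −0.98 with the spike-in scaling, where that over all genes was −0.74.

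After loess the channel labelled Chuk-deleted was the brighter for the 5 stefin A genes under the name rule, and for 4 of them by more than 3-fold. Csta2, a gene of the same cluster outside that rule, is given below. These genes encode small inhibitors that enter the active-site cleft of papain-like proteases such as cathepsins B, H, L and S. The intensity of Stfa3 was 499 in the wild-type channel and 3082 in the channel labelled Chuk-deleted on array 1, and 532 and 3793 on array 2. Stfa3 was thus higher on both arrays, with a log2 ratio of 2.73 ± 0.15 (SD, n = 2), or 6.63-fold (limma, adjusted p = 1.09e-05). Csta went from 3093 to 10804 on array 1 and from 3227 to 12658 on array 2, a log2 ratio of 1.89 ± 0.12 (SD, n = 2; limma, adjusted p = 2.11e-05). Probes named Stfa1 went from 2396 to 8421 and from 2386 to 9141, a log2 ratio of 1.88 ± 0.09 (SD, n = 2; limma, adjusted p = 1.75e-05). In both genes the channels were well apart and the arrays close together. Stfa2 went from 233 to 753 on array 1 and from 236 to 741 on array 2, a log2 ratio of 1.67 ± 0.03 (SD, n = 2; limma, adjusted p = 1.93e-05). By these probes, the brightest tested of each gene, the 4 genes were higher under every scaling run, at 2.13 to 3.33 with median centring and 0.91 to 1.97 with the spike-in scaling.

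The fifth gene, Stfa2l1, gave much less. On neither array did its wild-type channel rise well above background, and its log2 ratios were 0.10 and 0.27. With loess the probe gave at least 1.14-fold more signal in the channel labelled Chuk-deleted (limma, adjusted p = 0.0379). The probe's own wild-type signal, which lay above the lowest signal well above background, sets this bound, so it equals the fitted fold. Since the probe passed the filter through the channel in which it is the brighter, its call is no support for a rise. Its ratio was 0.99 in the scanner software's values, 0.06 with median centring and −0.57 with the spike-in scaling, so neither its size nor its direction held across scalings. The probes of a gene also differed in size. The second Stfa1 probe (A_51_P132185) gave 1.86 and 1.96, close to the first. The second Csta probe (A_52_P686716) gave 0.64 and 0.59, or 1.53-fold, against 3.70-fold for A_51_P384894. The scanner software's ratio for that second probe was 1.21, against 1.94 for the first. With the spike-in scaling the second probe turned to −0.14 (limma, adjusted p = 0.246), and with median centring it stood at 0.81. Stefin A genes are close copies, so a probe of one may also bind RNA of another, and the levels of single copies are uncertain.

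The promoters of 3 of these genes are shown because the genes are copies in the same cluster whose probes gave ratios from near 0 to the highest of the family. Sequences are RefSeq's, on GRCm38.p6, each holding the 250 bases before the annotated start in the direction of transcription, with motif matches in capitals. They lie at chr16:36455393-36455642 on the minus strand (Stfa3), chr16:36408364-36408613 on the minus strand (Stfa2) and chr16:36156561-36156810 on the plus strand (Stfa2l1).
Stfa3: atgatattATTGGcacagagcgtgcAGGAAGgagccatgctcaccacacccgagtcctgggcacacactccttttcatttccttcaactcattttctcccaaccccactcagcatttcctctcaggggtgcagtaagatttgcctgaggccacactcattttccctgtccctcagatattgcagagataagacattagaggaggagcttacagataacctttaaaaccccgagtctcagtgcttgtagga
Stfa2: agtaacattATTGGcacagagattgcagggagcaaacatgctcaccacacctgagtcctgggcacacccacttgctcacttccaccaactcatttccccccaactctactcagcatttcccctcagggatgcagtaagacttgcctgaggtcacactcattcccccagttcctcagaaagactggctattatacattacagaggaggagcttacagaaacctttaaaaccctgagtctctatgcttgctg
Stfa2l1: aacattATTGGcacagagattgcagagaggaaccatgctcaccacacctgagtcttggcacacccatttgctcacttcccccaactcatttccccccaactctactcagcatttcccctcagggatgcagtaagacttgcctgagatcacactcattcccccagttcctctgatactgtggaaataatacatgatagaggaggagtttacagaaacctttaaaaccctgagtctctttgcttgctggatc
Stfa2l1 shared 90.8% of its bases with Stfa2 and 82.0% with Stfa3, and Stfa2 shared 81.6% with Stfa3. The motifs searched on both strands were the TATA box TATAAA, the AP-1 site TGANTCA, the ETS-type site AGGAAG, the E-box CACGTG, the NF-kB site (GGGNN followed by TTTCC), the CCAAT box and the GC box GGGCGG. Each of the 3 promoters held a CCAAT box on the reverse strand (ATTGG), from base −242 in Stfa3, −241 in Stfa2 and −244 in Stfa2l1, as did 33.8% of 32851 promoters of the same length on either strand. Stfa3 also held the ETS-type letters from base −225, which 29.5% of promoters hold. The NF-kB letters, found in 1.41% of promoters, the AP-1 letters, found in 6.75%, and the TATA letters, found in 12.4%, are not in these 3 windows.

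Along chromosome 16 the higher stefins did not form an unbroken block. In the RefSeq order Ccdc58 comes first, at 0.35 ± 0.07 (SD, n = 2). Csta, which RefSeq now calls Csta1, and Stfa2l1 come next. The probe named 2010005H15Rik, now Csta2, lies among them and gave −0.62 and −0.07. Its mean was −0.34 with an SD of 0.39 (n = 2), larger than the mean itself. After loess this stefin-like gene between the higher copies was called lower, close to the threshold (limma, adjusted p = 0.0487). On array 2 it was barely lower, and its own values under the other scalings are not given here. With median centring and with the spike-in scaling the cystatin-like pair of genes outside the name rule, Csta2 and Fetub, had a median of −0.04 and −1.03. The array's Stfa1 probes carry an accession that RefSeq now gives to Cstdc6, and the gene RefSeq calls Stfa1 has no probe here. Stfa2 and Stfa3 close the cluster. Probes of Cstdc4 and Cstdc3, and that of Casr beyond the cluster, were too dim to test.

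**Figure D1:**
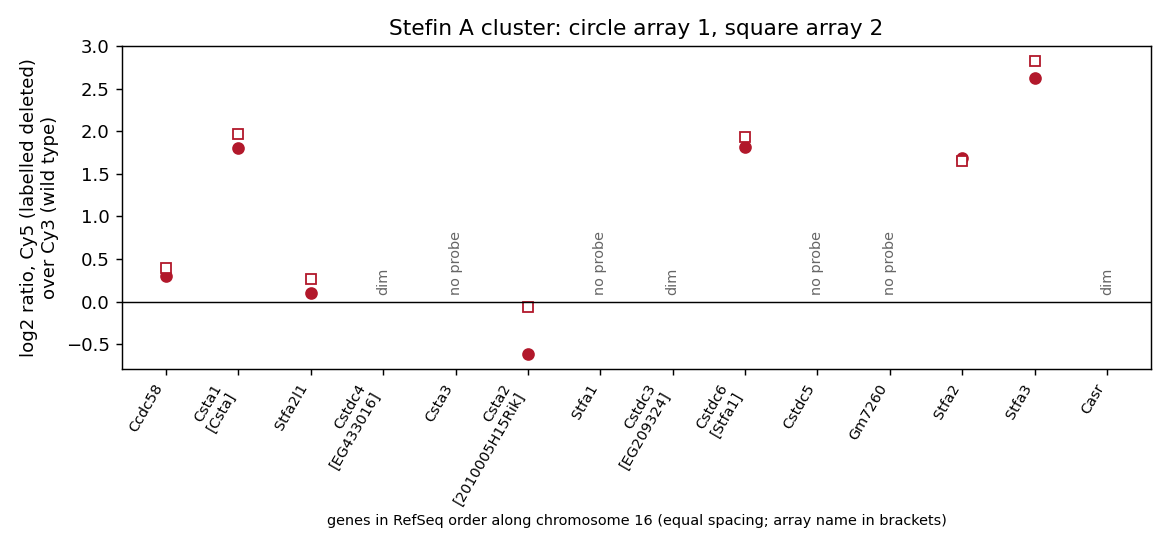
Log2 ratio of the channel labelled Chuk-deleted over wild type for the genes of the stefin A cluster in RefSeq order, equally spaced, with circles for array 1, squares for array 2 and the array's own name in brackets. Csta, the Stfa1 probes, Stfa2 and Stfa3 lie between 1.65 and 2.83 on both arrays, and Csta2 lies at −0.62 and −0.07; Stfa2l1, at 0.10 and 0.27, is at −0.57 with the spike-in scaling.

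Stefin A genes are also transcribed in granulocytes, so neutrophil markers are given beside them. Of 13 markers on the array, 4 were tested: S100a8 rose (1.06 ± 0.21), and S100a9 (−2.29 ± 0.27), Ltf (−1.89 ± 0.47) and Mmp8 (−1.38 ± 0.17) fell (SD, n = 2). Keratinocytes also make the S100 proteins. The granule genes Mpo, Elane, Prtn3, Ngp and Camp were not well above background in either channel. The summed intensity of the list was 7635 in the wild-type channel and 5300 in the channel labelled Chuk-deleted on array 1, and 9868 and 9527 on array 2. In such bulk RNA, fewer cells of a type and less RNA per cell cannot be told apart.

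After loess stefin B moved the other way from Stfa3, Csta, Stfa1 and Stfa2. Cstb, the broadly expressed stefin of cytosol and nucleus, went from 14511 to 9483 on array 1 and from 14949 to 10159 on array 2. It fell by 0.59 on the log2 scale (SD 0.04, n = 2), or 1.50-fold (limma, adjusted p = 0.000233), and its second probe gave −0.48 and −0.54. With median centring the Cstb ratio was 0.15, still 0.39 below the median of all genes under that scaling.

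Among the secreted cystatins, Cst6 fell and Cst3 was not called. The Cst6 signal went from 75070 to 25518 on array 1 and from 106767 to 9998 on array 2. The signal fell on both arrays, but by very different amounts, with log2 ratios of −1.56 and −3.42. The mean was −2.49 ± 1.32 (SD, n = 2), or 5.61-fold lower (limma, adjusted p = 0.00184), and it was −1.65 with median centring and −3.24 with the spike-in scaling. The size thus depends on which array is read, and array 1 alone gives the smaller fall. A second Cst6 probe (A_51_P417933) was not well above background in either channel on either array, so the fall rests on 1 probe. Cst3 encodes cystatin C, the widely secreted inhibitor of cysteine cathepsins. It went from 35252 to 39631 and from 25835 to 27622, a log2 ratio of 0.13 ± 0.05 (SD, n = 2; limma, adjusted p = 0.0706). Its ratio was −0.63 with the spike-in scaling and 0.95 with median centring.

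**Figure D2:**
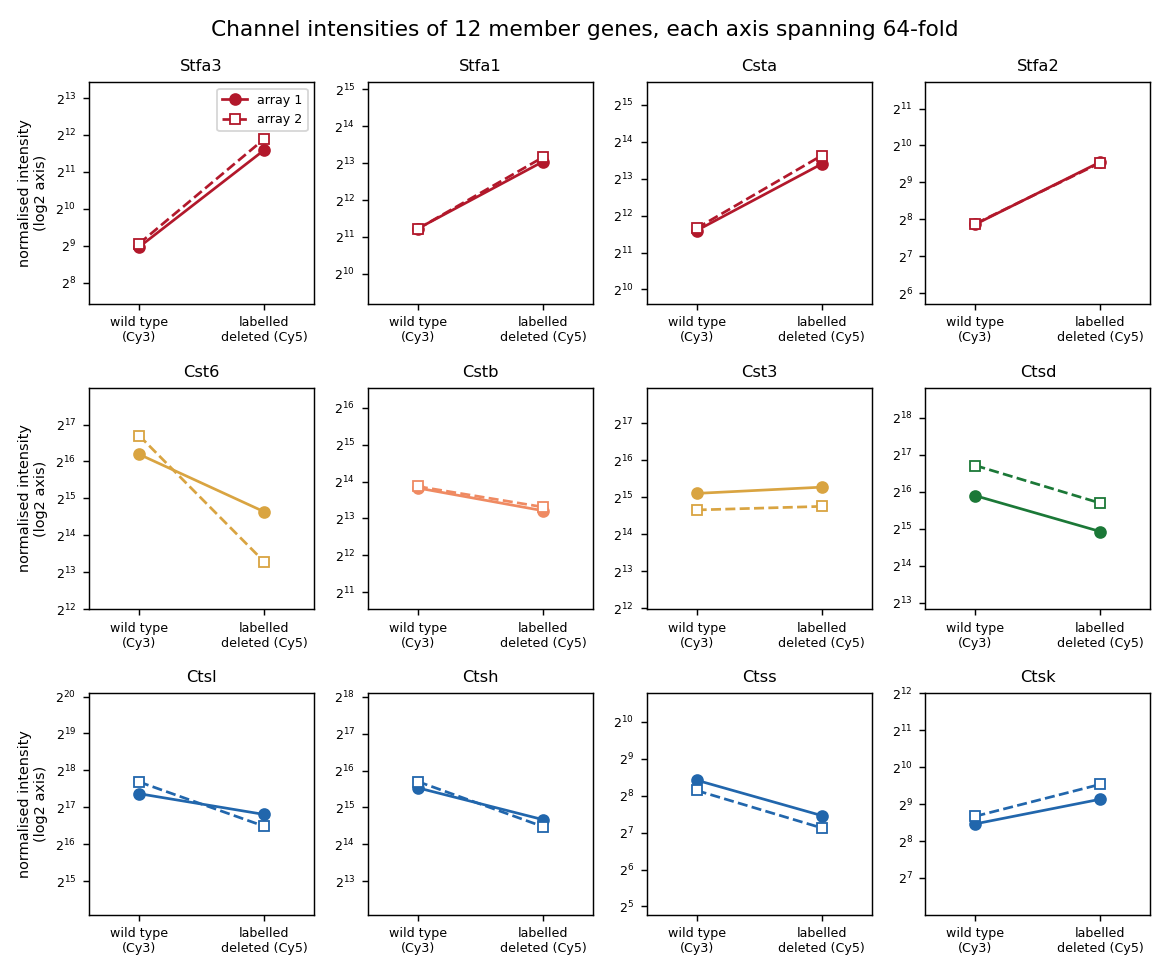
Normalised intensity in the wild-type channel (Cy3) and the channel labelled Chuk-deleted (Cy5) for members with their values in the text, on log2 axes of equal span. Filled circles and full lines mark array 1, and open squares and broken lines mark array 2. The stefin A lines rise steeply and in parallel, whereas the Cst6 lines fall from 75070 to 25518 and from 106767 to 9998; with median centring the Cstb and Ctsl ratios lie above 0, and with the spike-in scaling that of Cst3 lies below 0.

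Cystatin M/E and its partners were examined from a list of 4 genes, which includes the family members Cst6 and Ctsl. Ctsl, its target protease, fell along with Cst6. Lgmn, which encodes legumain, gave −0.18 and −0.09 (limma, adjusted p = 0.0734), and Tgm3, the transglutaminase downstream of cathepsin L in cornification, was not tested. Of the 3 tested genes (Cst6, Ctsl and Lgmn), 2 were called lower and 0 higher (limma). Over all genes tested, 28.3% were called lower and 33.0% higher. Of these 3 genes, only Lgmn, which was not called, lies outside the family selected on these same ratios. Cathepsin L is a broad endoprotease of the lysosome that also acts in the hair follicle. Its signal went from 169056 to 114495 on array 1 and from 210903 to 91777 on array 2. The log2 ratios were −0.56 and −1.20. Their mean was −0.88 ± 0.45 (SD, n = 2; limma, adjusted p = 0.00209), lower on both arrays and more so on array 2. The Ctsl ratio was 0.05 with median centring, which is 0.49 below the median of all genes under that scaling.

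Cathepsins D, H and S fell by close to 2-fold in the channel labelled Chuk-deleted. Ctsd encodes the main aspartic protease of the lysosome, which stefins and cystatins do not block. It went from 60865 to 31026 on array 1 and from 107311 to 52912 on array 2, a log2 ratio of −0.996 ± 0.03 (SD, n = 2; limma, adjusted p = 4.77e-05). Its second probe gave −0.81 and −1.38. Ctsh, an aminopeptidase, went from 47341 to 26070 and from 53276 to 22877, a log2 ratio of −1.04 ± 0.25 (SD, n = 2; limma, adjusted p = 0.000196). Ctss, the cathepsin of antigen-presenting cells that trims the invariant chain, went from 343 to 176 and from 282 to 140, a log2 ratio of −0.99 ± 0.04 (SD, n = 2; limma, adjusted p = 4.89e-05). In each gene both arrays were lower, and Ctsd and Ctss differed little between arrays. With median centring these 3 genes stood at −0.14, −0.21 and −0.68, and the calls of Ctsd and Ctsh were lost (limma, adjusted p = 0.250 and 0.0636).

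Most but not all tested macrophage and dendritic cell markers were called lower, as Ctss was. Of 9 tested markers of that list, 6 were called lower and 0 higher (limma; 0 also at an unadjusted p below 0.05). Of these 6, Csf1r, Adgre1, C1qa and C1qc were well above background in Cy5 on only 1 array, and on the other passed the filter through the wild-type channel, in which they are the brighter. Lyz2, measured in both channels on both arrays, fell by 1.02 on the log2 scale (SD 0.08, n = 2). Cd68, Cd14 and C1qb were not called, with mean log2 ratios of 0.13, −0.15 and −0.12. Cd68, also measured in both channels on both arrays, thus went the other way (limma, adjusted p = 0.0840). The summed intensity of the list went from 5321 to 3927 on array 1 and from 5461 to 4047 on array 2. Itgam, Fcgr1, Mrc1 and the Langerhans cell marker Cd207 were not well above background in either channel. The part of such cells in the Ctss ratio was not tested.

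Smaller falls were called for Ctsc and Ctsa. Ctsc, a dipeptidyl peptidase that activates granule proteases, went from 6443 to 4928 and from 4273 to 3262, so the arrays gave the same ratio, −0.39 on each (limma, adjusted p = 0.00102). Ctsa, the carboxypeptidase that protects neuraminidase and β-galactosidase in a lysosomal complex, stood at −0.47 ± 0.01 (SD, n = 2; limma, adjusted p = 0.000484). Its other probes gave −0.57 ± 0.03 and −0.44 ± 0.33 (SD, n = 2). Of its complex partners, Neu1 fell (−0.33 ± 0.11) and Glb1 rose (0.29 ± 0.03; SD, n = 2). With median centring Ctsc turned to 0.29 and Ctsa to 0.25, which is 0.26 and 0.30 below the median of all genes under that scaling.

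The promoters of Ctsd and Ctsl, a pair of lysosomal cathepsins that fell, are shown because they hold the E-box CACGTG, the core of the element that factors of the TFEB family bind at lysosomal genes. They lie at chr7:142387828-142388077 (Ctsd) and chr13:64370521-64370770 (Ctsl), both on the minus strand of GRCm38.p6, with E-box and GC box letters in capitals.
Ctsd: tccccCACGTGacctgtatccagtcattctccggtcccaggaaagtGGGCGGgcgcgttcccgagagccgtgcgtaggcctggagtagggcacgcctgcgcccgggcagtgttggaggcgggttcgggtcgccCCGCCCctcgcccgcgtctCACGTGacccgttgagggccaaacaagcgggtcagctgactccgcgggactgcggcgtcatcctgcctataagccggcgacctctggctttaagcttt
Ctsl: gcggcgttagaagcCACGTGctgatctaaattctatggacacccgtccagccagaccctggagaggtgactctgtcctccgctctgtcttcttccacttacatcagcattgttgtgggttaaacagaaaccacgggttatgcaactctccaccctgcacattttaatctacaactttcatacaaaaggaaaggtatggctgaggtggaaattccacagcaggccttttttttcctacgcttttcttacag
Ctsd held the E-box from bases −245 and −98, and GC boxes from −204 and −117. Ctsl held the E-box from base −236. Ctsf and Ctsa also held the E-box, as did 6.02% of all promoters. The GC box was found in 32.7% of them. A match describes the letters only: Ctsd and Ctsl fell and Ctsf was not called, and Ctsa, which fell, held it in 1 of its 2 promoters in the table. Ctsc and Ctss also fell, and their promoters held no E-box. Mitf, of the TFEB family, fell by 0.86 on the log2 scale (SD 0.06, n = 2). Mitf is also on the list of melanocyte markers, of which 7 of 7 tested fell. Tfe3, of the same family and measured in both channels on both arrays, gave −0.30 ± 0.03 (SD, n = 2; limma, adjusted p = 0.00306). Tfeb itself was called lower, but in Cy5 it was well above background on only 1 array, so its size is not given.

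Cathepsins that rose did so by less than 2-fold after loess, while with median centring the log2 ratios of Ctsk and Ctsz were 1.26 and 1.02. Ctsk, the collagen-cutting cathepsin known from osteoclasts and also made by fibroblasts, went from 354 to 562 on array 1 and from 408 to 743 on array 2. Its log2 ratio was 0.77 ± 0.14 (SD, n = 2), or 1.70-fold (limma, adjusted p = 0.000192), and it was 0.01 with the spike-in scaling (limma, adjusted p = 0.945). Ctsk and Ctss are neighbours on chromosome 3, and their ratios had opposite signs under each scaling run, with Ctsk near 0 under the spike-in scaling. Ctsw, a cathepsin of cytotoxic lymphocytes, stood at 0.45 ± 0.07 and Ctso at 0.34 ± 0.06 (SD, n = 2). Ctsz, a carboxypeptidase, gave 0.22 and 0.31 from 1 probe (limma, adjusted p = 0.00665) and 0.07 and 0.11 from the other (limma, adjusted p = 0.188). With the spike-in scaling Ctsw turned to −0.31, Ctso to −0.41 and Ctsz to −0.50. That scaling shifts all genes alike, so each stayed above the median of all genes, as with loess.

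Other cell types that make these cathepsins were checked by their markers. Of 12 fibroblast markers 10 rose and 1 fell after loess. Their summed intensity went from 78950 to 140403 on array 1 and from 66272 to 139830 on array 2. The median log2 ratio of these markers was 0.73 with loess and 1.46 with median centring. With the spike-in scaling it was −0.03, where that over all genes was −0.74, so the rise depends on the scaling. Of 5 tested osteoclast markers 3 were called higher, with Tnfrsf11a at 1.32 ± 0.16 (SD, n = 2), and Acp5 fell (−0.32 ± 0.05). Another of the 3, Ocstamp, passed the filter through Cy5 only. The median of the osteoclast list was 0.19 with loess and −0.57 with the spike-in scaling. The summed intensity of that list went from 1819 to 2103 and from 1705 to 1891, and Dcstamp, Calcr and Atp6v0d2 were not well above background in either channel. The part of such cells in the Ctsk ratio was not tested. Of 11 T and NK cell markers on the array only Cd3e was tested, which was well above background in the wild-type channel on only 1 array, and Ptprc, Nkg7, Gzma and Gzmb were not well above background. The summed intensity of that list was 915 in the wild-type and 917 in the other channel on array 1, and 929 and 919 on array 2.

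Ctsb and Ctsf were not called. Ctsb, an abundant endoprotease and carboxypeptidase, gave −0.09 and −0.02 (limma, adjusted p = 0.385), and a dimmer probe gave −0.09 and −0.32 (limma, adjusted p = 0.0402). Ctsf gave −0.06 and −0.02 (limma, adjusted p = 0.511). With median centring they stood at 0.81 and 0.38. A missed threshold does not show that they were equal in both channels. Cstad, which is not a cystatin, gave 0.74 and 0.69 (limma, adjusted p = 0.000118) and −0.05 with the spike-in scaling.

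The remaining 18 members were too dim to test. They were 8 placental-type cathepsins (Cts3, Cts6, Cts7, Cts8, Ctsj, Ctsm, Ctsq and Ctsr), 8 secreted cystatins (Cst7, Cst8, Cst9, Cst10, Cst11, Cst12, Cst13 and Cstl1), the gastric and immune aspartic protease Ctse, and the granule serine protease Ctsg. Single spots of Cst8 and Ctsm passed in Cy5 on array 1 and nowhere else. The placental-type cathepsins form a cluster on chromosome 13, and most of the dim cystatins lie with Cst3 on chromosome 2, where Cst3 was the single cystatin tested. Of 11 trophoblast markers on the array 4 were tested, with 1 lower, and Tpbpa, Hand1 and Gcm1 were not well above background.

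Genes that work with the cathepsins were described from further lists. Counts called in these and in the marker lists stand beside 33.0% of all genes called higher and 28.3% called lower with loess. Of 15 tested genes of other cysteine proteases and their regulators, 9 fell and 1 rose, with a median log2 ratio of −0.39. Cast, the inhibitor of calpains, gave −0.88 ± 0.02, and Ctla2a and Ctla2b, which resemble the propeptide of cathepsin L and inhibit it, gave −0.80 ± 0.15 and −0.69 ± 0.19 (SD, n = 2). Capns2, a calpain small subunit, gave −1.21 ± 0.19, while the calpain gene Capn6 rose (0.33 ± 0.05; SD, n = 2). With median centring the median of this list was 0.22, which is 0.33 below that of all genes. Inhibitors outside the cystatin fold thus included several that fell, as Cstb and Cst6 did.

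Lysosomal genes did not move as a block. Of 34 genes of hydrolases and a few other lysosomal proteins, cathepsins left out, all tested, 16 rose and 5 fell, with a median of 0.11. Sgsh, a heparan sulfatase, gave 0.80 ± 0.07, and Hexa, a hexosaminidase subunit, gave 0.77 ± 0.13, whereas Gm2a, its activator protein, gave −0.81 ± 0.15 (SD, n = 2). Dnase2a rose by 0.54 ± 0.06 (SD, n = 2). The 19 tested membrane and proton pump genes had a median of −0.29, and 14 of them fell while 0 rose (limma; 0 also at an unadjusted p below 0.05). The pump subunits Atp6v1b2 and Atp6v0c gave −1.31 ± 0.18 and −0.88 ± 0.14, and the cystine exporter Ctns gave −0.78 ± 0.20 (SD, n = 2). The 13 sorting and regulatory genes had a median of −0.10, and 6 of them fell while 2 rose. The sorting receptors Sort1 and Igf2r gave −0.81 ± 0.01 and −0.59 ± 0.10, while M6pr gave 0.17 ± 0.11 and the adaptor Gga2 0.22 ± 0.09 (SD, n = 2). The medians of these 3 lists were 0.75, 0.41 and 0.28 with median centring, and −0.65, −1.05 and −0.86 with the spike-in scaling, so their signs hold only relative to all genes.

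Pigment cells are rich in lysosome-related organelles, and their markers fell, whereas of 12 tested cathepsins 6 fell and 4 rose. Of 7 tested melanocyte markers 7 fell and 0 rose (limma; 0 also at an unadjusted p below 0.05), with a median of −0.89. The summed intensity of the list went from 49628 to 20859 on array 1 and from 50671 to 18504 on array 2. Tyr was not well above background in either channel. The part of such cells in the cathepsin ratios was not tested.

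The scaling moved nearly every ratio in the same direction, which leaves the order of the genes in large part as it was. After loess the spike-in controls averaged 0.68 for array 1 and 0.84 for array 2 in log2 ratio. Lowering each array by that mean shifted the median of all genes by −0.76, and median centring, which applies no intensity-dependent correction, shifted it by 0.53. Set against the median of all genes, Stfa3 stood at 2.71 with loess and 2.78 with median centring, and Cst6 at −2.51 and −2.20. The spike-in scaling takes a constant from each array, so by construction it leaves these distances as loess gave them. Ctsd stood at −1.02 with loess and −0.68 with median centring, and Ctsk at 0.75 and 0.71. The genes that changed side of that median with median centring were Ctsb, from −0.08 to 0.26, and Stfa2l1, from 0.16 to −0.48.

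**Figure D3:**
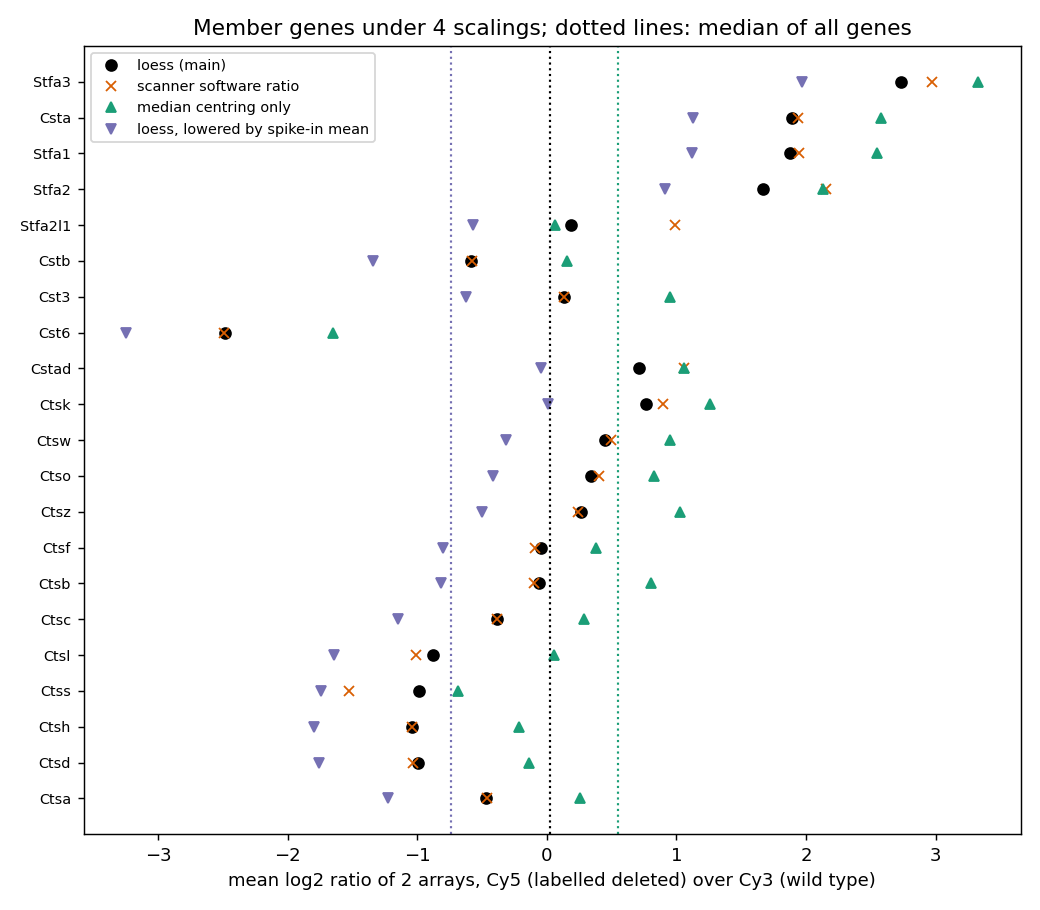
Mean log2 ratio over both arrays for the 21 tested member genes under loess (circles), the scanner software's ratio (crosses), median centring (upward triangles) and the spike-in scaling (downward triangles), with dotted lines at the median of all genes for loess (0.02), median centring (0.55) and spike-in scaling (−0.74). Stfa3, Csta, Stfa1 and Stfa2 lie above 0 and Cst6, Ctss, Ctsh and Ctsd below 0 under each, whereas Ctsa, Ctsb, Ctsc, Ctsf, Ctsl and Cstb turn with median centring and Cst3, Cstad, Ctso, Ctsw, Ctsz and Stfa2l1 with the spike-in scaling.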

How the data were processed

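The deposited scanner files hold, per the file headers (Agilent Feature Extraction 9.1.3.1), the mean intensity of each spot and the median intensity of its local background per channel, uncorrected. They also hold the software's log10 ratio of Cy5 over Cy3, background subtracted and dye normalised per the file headers, and flags. The deposited table of series values equalled that log10 ratio within 0.005, so it shares its direction and centring (column medians of 0). In R 4.3.3 with limma 3.58.1 and data.table (version 1.17.8), background was corrected (normexp, offset 50), and log2 ratios were loess normalised within arrays with control spots at weight 0. Outlier spots (51 and 18) were dropped and spots of a probe averaged. Of 41174 probes, the 23519 with a channel flagged well above background on each array were tested with lmFit and eBayes (1 residual and 5.16 prior degrees of freedom), two-sided, with Benjamini-Hochberg adjustment and a threshold of 0.05.

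A gene stands by its tested probe of highest mean intensity. Names are the array's; RefSeq (GRCm38.p6) matched 45 member probes by accession and 4 by symbol and gave gene order. Promoter motifs and identities were computed in Python 3.11.15 with Biopython 1.88. No member spot was saturated (0 spots). The number of arrays limits the precision. Every tested member is named. Array values are given for members called and at least 2-fold apart on both arrays and for a list of stefins, cystatins and cathepsins. Of each pathway list, up to 4 called genes with the largest change are given. A few genes were added after their values were seen (Capn6, Neu1, Glb1, M6pr, Gga2, Tfe3 and the cell type markers). The members, lists and this rule were chosen with earlier results of these data known. Alternatives were other background corrections, scalings, filters, probe rules and leaving out an array.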

Additional observations from a re-analysis of the deposited data

How the results depend on the processing

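The scaling decided most of what changed. With median centring 8 proteases were called higher and 1 lower, and 1 inhibitor lower; with the spike-in scaling 0 proteases were called higher and 11 lower, and 4 inhibitors lower. Over all genes the calls were 10270 higher and 988 lower with median centring, and 281 and 12497 with the spike-in scaling. Median centring turned Cstb to 0.15, Ctsa to 0.25, Ctsb to 0.81, Ctsc to 0.29, Ctsf to 0.38 and Ctsl to 0.055. The spike-in scaling turned Cst3 to −0.63, Cstad to −0.045, Ctso to −0.41, Ctsw to −0.31, Ctsz to −0.50 and Stfa2l1 to −0.57. The protease median was 0.33 with median centring, −0.98 with the spike-in scaling, −0.040 with no filter, −0.26 with probes averaged, and −0.24 to −0.21 with either array left out. The inhibitor median was 1.54, 0.17, 0.12 and 0.72 in the same order, 1.46 with the scanner software's ratio, 1.67 with both channels above background, and 0.93 to 0.96 with either array left out. With the median of all genes brought back to its loess value, an alternative chosen after seeing the data, median centring gave −0.19 for proteases and 1.02 for inhibitors. Why each scaling gave other values was not tested. All 21 tested members kept direction and call with no background correction, the scanner software's ratio, no filter and probes averaged, as did the 20 that remained with both channels above background. The scanner software's ratio put 2 proteases at least 2-fold lower on both arrays and the spike-in scaling 6. A single array has no residual degrees of freedom and so no test. A slide block was not run, since both arrays lay on 1 slide. The RNAs of an array were compared within that array by their ratio, so this pairing is part of every test. No further pairing was modelled, because the arrays form a single group. Dim probes are limited by signal over background.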
